A study of Oncorhynchus mykiss with 14 samples.

Results

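Intramuscular adipocytes of rainbow trout were compared with subcutaneous adipocytes after the miRNAs of muscle had been taken out of the counts. The comparison used 10 of the 14 small RNA libraries of the series: 5 from intramuscular adipose tissue (IMAT, the fat between muscle fibres, replicates 1 to 5) and 5 from subcutaneous adipose tissue (SAT, the fat under the skin, replicates 1 to 5). All were made from mature adipocytes that had been freed with collagenase type II from the fat of adult, untreated fish kept under the same conditions and fasted before sampling. Nothing in the labels says that the libraries of a depot came from separate fish, so p-values measure only the spread between these libraries, which may be technical. Entries for miR-1, miR-133, miR-206 and miR-499 were removed by the start of their names before totals and scaling were computed. The 10 entries removed include miR-1338-5p, which shares only the first letters of its name with miR-133. Entries with identical counts in all 10 libraries were read as 1 miRNA, and those above 0 in at least 4 of the 10 libraries were tested, which left 243 entries (177 with a miRNA name, 66 predicted ones without).

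A miRNA is a short RNA that guides an Argonaute protein to messenger RNAs through its seed, the stretch near its 5′ end, and so lowers the translation or the stability of those messages. In adipocytes miRNAs are known to act on fat cell formation, on lipid storage and insulin response, and on the choice between a lipid-storing and a heat-producing fate. Muscle fibres carry a small set of very abundant miRNAs, the so-called myomiRs, and the families left out here belong to it.

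The removed entries took 83.6, 89.6, 84.7, 79.4 and 65.5% of the summed counts of IMAT 1 to 5, against 8.5, 8.53, 11.9, 3.37 and 5.52% of those of SAT 1 to 5. Some of these entries hold the same reads, and with identical entries joined the shares were 57.9 to 86.4% in IMAT and 2.52 to 9.02% in SAT. What remained was 578505, 440710, 379770, 151830 and 3944987 counts in IMAT 1 to 5 and 1830232, 3353119, 3496212, 2615673 and 3550365 counts in SAT 1 to 5. IMAT 1 to 4 were thus measured less deeply than every SAT library, and IMAT 5 more deeply. A single read in IMAT 4 is worth 4.95 CPM, and a count of 0 there allows a level of up to 14.9 CPM (3 reads, counting error only). Levels below are given as CPM, the counts scaled to the total of the remaining reads and corrected with TMM factors, and as mean ± SD where averaged. No messenger RNA was measured, so the labelled cell type could be checked only through miRNAs, none of which is made by adipocytes alone. Of the list of miRNAs abundant in adipocytes, 16 entries were tested, and their levels summed to 135482 to 186202 CPM in IMAT and 155199 to 225976 CPM in SAT. The share of the removed entries moves with the depot, and its part in the differences was not tested. In bulk libraries such as these, fewer cells of a type and less of a miRNA per cell cannot be told apart.

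IMAT 5 stood apart from IMAT 1 to 4 in the levels of single abundant miRNAs. Across entries, which are not independent replicates, its log2 levels had a median r of 0.83 with the other IMAT libraries (4 pairs) and of 0.85 with the SAT libraries (5 pairs). For IMAT 1 to 4 the median r was 0.85 among themselves (6 pairs) and 0.86 with the SAT libraries (20 pairs), so by this measure IMAT 5 was little different from them, and it was 0.92 among the SAT libraries (10 pairs). The levels of miR-10b in IMAT 1 to 5 were 35069, 49099, 33509, 37208 and 146419 CPM, and those of let-7e were 21368, 21752, 25583, 17116 and 102953 CPM. By contrast, miR-199a-3p was low in IMAT 5, with 9537 CPM beside 35246 to 38752 CPM in IMAT 1 to 4. Where IMAT 5 moved a miRNA of the Results below across the threshold or by over 1.5 times, the value without it is given too. The focus on IMAT 5 among the libraries left out was chosen after its values were seen. Leaving out a library that departs from its group can narrow the spread and add calls. Passes without IMAT 5 are thus not support of their own. Of the variance between the 10 profiles, 24.3% lay between the depots (exact permutation test over all assignments of libraries, p = 0.0079, the smallest p this design allows), and 30.5% without IMAT 5.

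**Figure D1:**
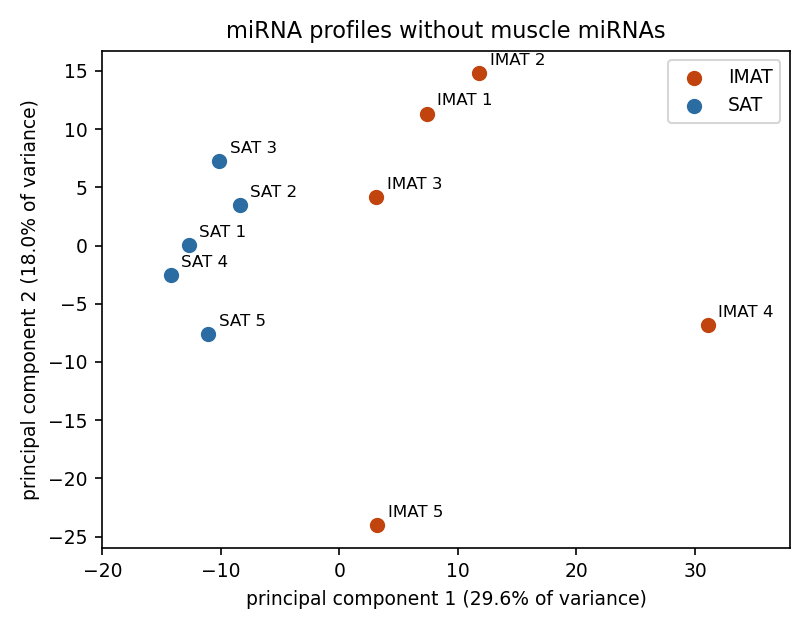
Principal components of log2(level + 1) over the 243 tested entries, 1 point per library, IMAT and SAT in separate colours. The first axis (29.6% of the variance) has every IMAT library at positive and every SAT library at negative values, and on the second (18%) IMAT 5 lies lowest, at -24.0, while IMAT 4, the shallowest library, lies farthest out on the first, at 31.1.

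Of the 243 entries, 20 differed between IMAT and SAT (8.23%; edgeR quasi-likelihood test, two-sided, Benjamini-Hochberg adjusted p under 0.05), and 61 had an unadjusted p under 0.05. In IMAT 13 were higher (5.35%) and 7 were lower (2.88%). For 16 of the 20 the libraries of the depots did not overlap, and of all entries 17 lay wholly above (7.00%) and 18 wholly below (7.41%) the SAT libraries in IMAT. The median log2 fold change of all entries was 0.08, and 0.44 with library totals as the only scaling, where 31 entries were higher and 5 lower. Without IMAT 5, 52 of 231 entries passed (22.5%), 23 higher (9.96%) and 29 lower (12.6%), and all 20 of the first set were among them. Without IMAT 1, 18 entries passed, 6 higher and 12 lower. Without SAT 2, SAT 3, SAT 4 or SAT 5, 12, 11, 12 and 12 entries passed, of which 4, 4, 5 and 5 were higher. Among the 20 were 15 named miRNAs, 10 higher and 5 lower in IMAT.

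**Figure D2:**
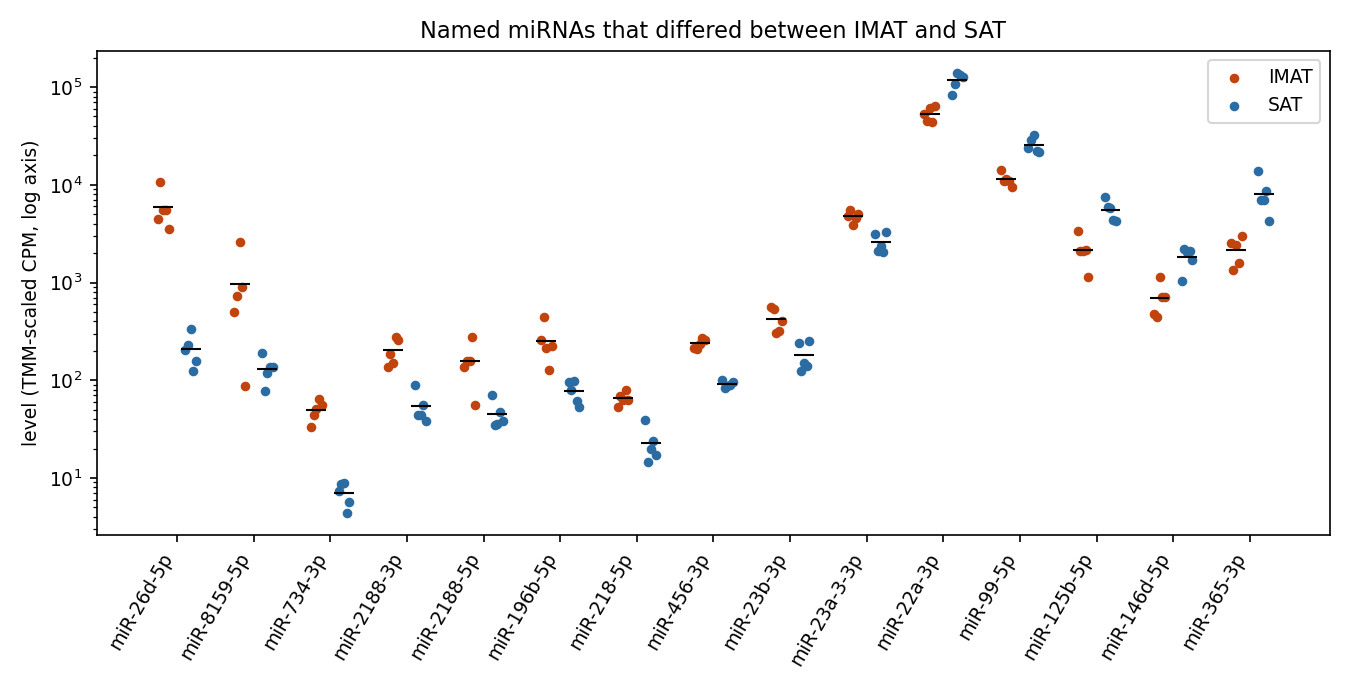
Level of each of the 15 named miRNAs that passed, in TMM-scaled CPM on a log axis, with 1 point per library (IMAT left, SAT right of each name) and the mean as a line. miR-26d has the widest gap, with 3547 to 10770 CPM in IMAT and 124.01 to 333 CPM in SAT, and only miR-8159, miR-2188-5p and miR-146d overlap between the depots.

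miR-26d, a fish form of the miR-26 family, whose mammalian members favour adipocyte differentiation, showed the largest fold change among the named miRNAs that passed. Its level was 4428, 10770, 5468, 5461 and 3547 CPM in IMAT 1 to 5, against 205.7, 230, 333, 124.01 and 157 CPM in SAT 1 to 5. Every IMAT library lay above every SAT library. The log2 fold change was 4.82 ± 0.41 (SE; edgeR adjusted p = 8.9e-05), and 4.96 ± 0.39 without IMAT 5 (adjusted p = 0.00012), and the call held in all 24 alternatives. The widely expressed relative miR-26a, by contrast, averaged 47724 ± 16095 CPM in IMAT and 40635 ± 4441 CPM in SAT (SD, n = 5 each), with a log2 fold change of 0.23 ± 0.25 (adjusted p = 0.63).

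miR-26d was also set against the removed miR-1. For every 1000 reads of miR-1-3p, miR-26d had 3.28, 4.67, 3.62, 6.45 and 4.80 reads in IMAT 1 to 5 and 8.51, 7.28, 6.56, 10.98 and 8.05 reads in SAT 1 to 5. By this measure every IMAT library lay below every SAT library. Over the 10 libraries that proportion spanned 3.35-fold, while miR-1-3p itself was at 211349 to 272176 CPM of all reads in IMAT and 9344 to 33927 CPM in SAT. In the visceral libraries 1, 3, 4 and 5, which held 242 to 14333 CPM of miR-1-3p, the proportion was 28.7, 6.55, 411 and 36.0. The removed miR-206 and miR-133a spanned 3.84-fold and 5.60-fold in the same proportion, and the removed miR-499a and miR-499b 13.3-fold and 27.8-fold. Among the other 12 entries that were higher in IMAT it spanned 13.3-fold for the predicted NovelmiRNA-324, 20.3-fold for miR-734-3p and 32.1-fold to 102-fold for the rest. The part of muscle RNA in the difference of miR-26d was not tested.

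**Figure D3:**
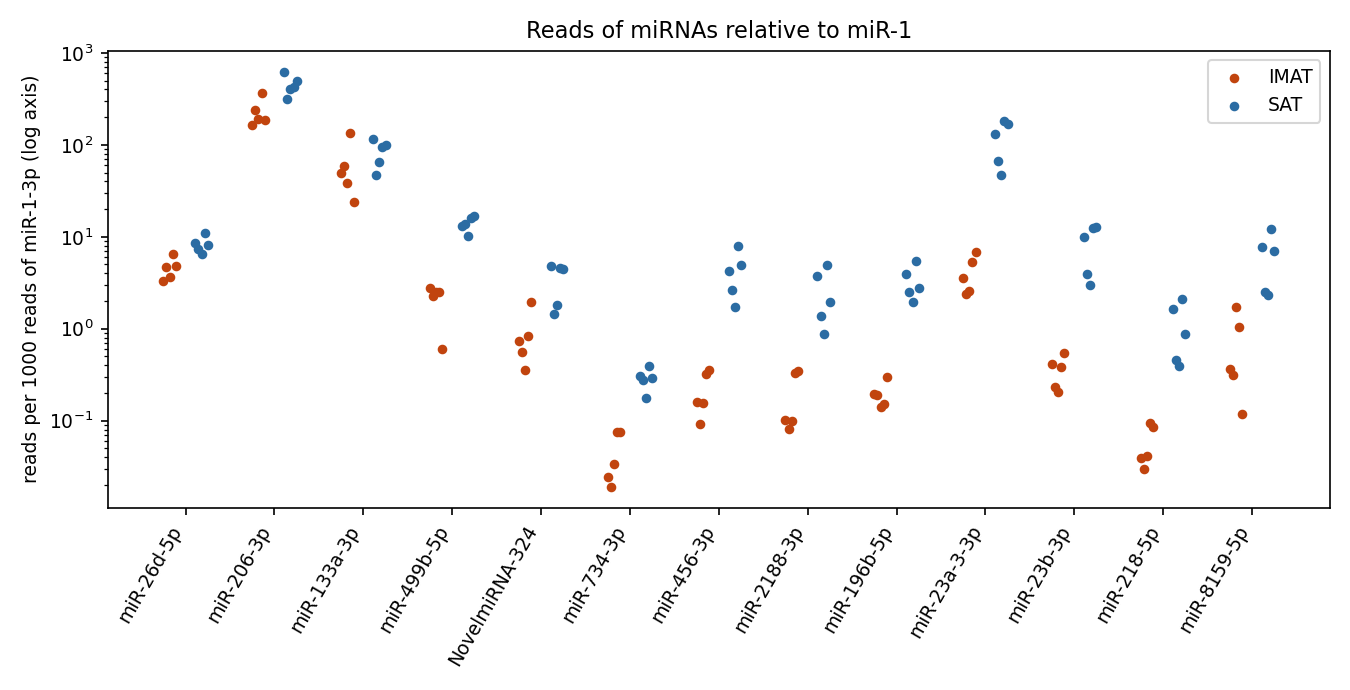
Reads of each miRNA per 1000 reads of miR-1-3p, on a log axis, with 1 point per library (IMAT left, SAT right of each name). miR-26d and the removed miR-206 and miR-133a lie within 3.35-fold to 5.60-fold over all 10 libraries, while the removed miR-499b spans 27.8-fold, miR-456 86.3-fold and miR-8159 102-fold.

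Of 17 tested entries on a list of miRNAs known mainly from fish, 4 were higher in IMAT and none lower, beside 5.35% higher and 2.88% lower of all entries, and over the list 8 log2 fold changes were positive and 9 negative. Both arms of the miR-2188 precursor were among the 4. Their entries had equal levels in IMAT 1, IMAT 4 and SAT 5, so they may hold some of the same reads and are not independent calls. miR-2188-3p was at 136.6, 186, 151, 277 and 259 CPM in IMAT 1 to 5 and at 90.4, 43.7, 44.4, 55.2 and 38.3 CPM in SAT 1 to 5. The depots did not overlap, and the log2 fold change was 1.89 ± 0.34 (edgeR adjusted p = 0.0058). Its other arm, miR-2188-5p, was at 136.6, 157, 158, 277 and 56.2 CPM in IMAT and at 70.3, 34.9, 35.9, 46.9 and 38.3 CPM in SAT. Here IMAT 5 fell below SAT 1, and the log2 fold change was 1.79 ± 0.42 (adjusted p = 0.024) with all libraries and 2.0 ± 0.32 (adjusted p = 0.003) without IMAT 5. The 3p arm did not pass without SAT 2 or SAT 3 (adjusted p = 0.051 to 0.056), nor the 5p arm without IMAT 1, SAT 2, SAT 3, SAT 4 or SAT 5 (0.066 to 0.11). In the fit of all 14 libraries neither arm passed (adjusted p = 0.095 for 3p and 0.14 for 5p), and without a filter the 5p arm did not (0.11).

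miR-456, known from fish and birds, was at 213, 210, 234, 272 and 260 CPM in IMAT and at 102, 83.3, 87.6, 89.0 and 96.8 CPM in SAT. Its log2 fold change was 1.38 ± 0.20 (edgeR adjusted p = 0.0016) and the depots did not overlap. It did not pass with the replicate number as a block (edgeR adjusted p = 0.052). The fish miRNA miR-734-3p was at 33.1, 44.0, 51.1, 64.4 and 55.3 CPM in IMAT and at 7.40, 8.73, 8.87, 4.38 and 5.71 CPM in SAT. This was 13 to 187 reads per IMAT library and 10 to 26 per SAT library, and the log2 fold change was 2.80 ± 0.35 (adjusted p = 0.00092), with a call in all 24 alternatives. miR-734-3p, miR-2188-5p and miR-218 are below the median level of named miRNAs (125.9 CPM) and were singled out after their values were seen.

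miR-8159 was at 498, 723, 2604, 891 and 87.8 CPM in IMAT 1 to 5 and at 189, 78.2, 119, 136 and 136 CPM in SAT 1 to 5. IMAT 3 was highest and IMAT 5 lay inside the range of SAT. The log2 fold change was 2.86 ± 0.72 (edgeR adjusted p = 0.034), and 3.16 ± 0.51 (adjusted p = 0.0031) without IMAT 5. The call was lost without IMAT 1, IMAT 3, IMAT 4 or any single SAT library (log2 fold change 2.06 to 3.03, lowest without IMAT 3, adjusted p = 0.054 to 0.1), in limma on log2(CPM + 1) (0.087) and without a filter (0.092). miR-216a, a miRNA of the exocrine pancreas, had its highest and lowest IMAT levels in the same libraries, with 67.6, 103.3, 345, 168 and 10.9 CPM in IMAT and 21.1, 13.4, 20.3, 19.3 and 32.9 CPM in SAT. Its difference did not pass with all libraries (log2 fold change 2.69 ± 0.74, adjusted p = 0.051) and passed without IMAT 5 (2.99 ± 0.50, adjusted p = 0.0037). The liver miRNA miR-122 followed the same order, with 54.7, 105, 229, 119 and 18.3 CPM in IMAT and 52.3, 11.8, 15.9, 14.9 and 19.5 CPM in SAT (2.19 ± 0.68, adjusted p = 0.077, and 2.47 ± 0.57, adjusted p = 0.015, without IMAT 5). The pancreas list as a whole had no call among 3 entries with all libraries, beside 8.23% of all entries. All 3 log2 fold changes were positive, and the list summed to 127 to 434 CPM in IMAT and 48.0 to 109 CPM in SAT. Its median was that of the scarce miR-216b (1.95 ± 0.84, adjusted p = 0.17), at 0 to 22.2 CPM in IMAT and 1.06 to 3.02 CPM in SAT. Other entries of these tissues departed from the order of miR-8159. The pancreas entry miR-375 was highest in IMAT 5 (223.1 CPM, the nearest IMAT library 69.3). Its log2 fold change was 0.77 ± 0.45 (adjusted p = 0.33) with all libraries and 0.18 ± 0.27 (adjusted p = 0.68) without IMAT 5. miR-216b and the gut and liver entries miR-192a and miR-194a were highest in IMAT 3, like miR-8159. Of these, only miR-194a was lowest in IMAT 5, and its log2 fold change was negative. The part of other digestive tissue in the levels of miR-8159 was not tested.

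miR-23a and miR-23b, relatives that are transcribed in clusters with miR-27 and miR-24, were both higher in IMAT. miR-23a (2 entries with identical counts, shown as miR-23a-3-3p) was at 4827, 5567, 3858, 4540 and 5024 CPM in IMAT and at 3146, 2112, 2391, 2072 and 3273 CPM in SAT. The log2 fold change was 0.87 ± 0.19 (edgeR adjusted p = 0.017). A further entry, miR-23a-4-3p, had similar levels in the other libraries but was listed at 0 in IMAT 1. It did not pass (0.54 ± 1.12, adjusted p = 0.82). miR-23b was at 561, 539, 307, 322 and 404 CPM in IMAT and at 241, 123.6, 151, 140 and 251 CPM in SAT, a log2 fold change of 1.23 ± 0.30 (adjusted p = 0.029). Neither overlapped between the depots, but the relatives are alike and reads may be split between them. Both calls were lost without IMAT 1, SAT 2, SAT 3, SAT 4 or SAT 5, and that of miR-23b also without IMAT 2 (adjusted p = 0.05 to 0.15 and 0.058 to 0.14). They were also lost in the fit of all 14 libraries (0.39 and 0.29) and without a filter (0.12 and 0.13). Of 11 tested entries of the miR-23, miR-24 and miR-27 clusters these 2 were higher and none lower, beside 5.35% higher and 2.88% lower of all entries. Over these clusters 7 log2 fold changes were positive and 4 negative, with a median of 0.22, beside 0.08 for all entries. miR-27b, which restrains adipocyte formation in mammals, averaged 4337 ± 1264 CPM in IMAT and 3732 ± 799 CPM in SAT (SD, n = 5 each; 0.22 ± 0.26, adjusted p = 0.68).

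miR-196b, which lies in a Hox cluster and marks the posterior body, was at 260, 444, 211, 129 and 222.8 CPM in IMAT and at 95.7, 79.2, 98.3, 60.9 and 53.4 CPM in SAT. The log2 fold change was 1.71 ± 0.36 (edgeR adjusted p = 0.014) with no overlap, and the call was lost without IMAT 1, SAT 2, SAT 3, SAT 4 or SAT 5 (adjusted p = 0.059 to 0.07). All 5 Hox-cluster entries had a positive log2 fold change, with a median of 0.82, beside 0.08 for all entries. Only miR-196b passed with all libraries, beside 5.35% higher and 2.88% lower of all entries. miR-196a was at 143.6 to 312 CPM in IMAT and 92.4 to 144.3 CPM in SAT (0.82 ± 0.26, adjusted p = 0.079). Without IMAT 5 it passed (0.83 ± 0.25, adjusted p = 0.049). For miR-10b, miR-10d and miR-10a the sign or size rested on IMAT 5: their log2 fold changes were 0.28, 1.15 and 0.71 with it (adjusted p = 0.74, 0.14 and 0.4) and -0.36, 0.45 and -0.11 without it (adjusted p = 0.067, 0.061 and 0.65). miR-218, which is encoded within Slit genes, was at 53.2 to 79.2 CPM in IMAT and 14.4 to 39.7 CPM in SAT. That is a log2 fold change of 1.5 ± 0.34 (adjusted p = 0.021), with no overlap and 16 to 211 reads per IMAT library. It lost its call without IMAT 1, SAT 2, SAT 3, SAT 4 or SAT 5 (adjusted p = 0.063 to 0.11), in the fit of all 14 libraries (0.077) and without a filter (0.15).

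The abundant miR-22a, a miRNA tied to lipid metabolism in mice, was lower in IMAT. Its level was 52534, 44556, 60896, 43694 and 64195 CPM in IMAT 1 to 5, against 83519, 108746, 140084, 131467 and 127331 CPM in SAT 1 to 5. No IMAT library reached the lowest SAT library. The log2 fold change was -1.15 ± 0.18 (edgeR adjusted p = 0.0031), and the call held in all 24 alternatives. miR-22b-5p was at 113 to 228 CPM in IMAT and 70.5 to 110 CPM in SAT, with a log2 fold change of 0.84 ± 0.27 (adjusted p = 0.08). Without IMAT 5 it passed (0.91 ± 0.25, adjusted p = 0.033).

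miR-99 and miR-125b, of the conserved clusters that also hold let-7 and miR-100, fell together. miR-99 was at 14187, 10884, 11488, 10912 and 9517 CPM in IMAT and at 23933, 29039, 32062, 22312 and 21487 CPM in SAT, with -1.18 ± 0.17 as its log2 fold change (edgeR adjusted p = 0.0016) and a call in all 24 alternatives. miR-125b was at 3370, 2083, 2122, 2144 and 1138 CPM in IMAT and at 7515, 5902, 5787, 4411 and 4308 CPM in SAT, a log2 fold change of -1.36 ± 0.29 (adjusted p = 0.014). Neither overlapped between the depots, and miR-125b did not pass with library totals only (-0.96, adjusted p = 0.1). Of the 5 entries for miR-99, miR-100 and miR-125 these 2 were lower and none higher, beside 2.88% lower and 5.35% higher of all entries. The list median log2 fold change was -1.11, beside 0.08 for all entries. miR-125a-2-3p went the other way (0.58 ± 0.38, adjusted p = 0.38). Without IMAT 5, miR-100a (-0.77 ± 0.13, adjusted p = 0.0039) and miR-125a (-0.89 ± 0.17, adjusted p = 0.0057) were lower as well. With all libraries they had -0.50 ± 0.24 and -1.11 ± 0.33 (adjusted p = 0.22 and 0.065). In IMAT 5 miR-100a was the highest of its depot (199389 CPM, the others 90645 to 113529) and miR-125a the lowest (2851 CPM, the others 8548 to 11580).

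miR-365, known in mice for a part in brown fat formation, was at 2526, 1358, 2420, 1574 and 2985 CPM in IMAT and at 13802, 7050, 6914, 8593 and 4250 CPM in SAT. The depots did not overlap and the log2 fold change was -1.90 ± 0.34 (edgeR adjusted p = 0.0058). With the replicate number as a block it did not pass (edgeR adjusted p = 0.057). A second entry, miR-365-2-3p, held the same level wherever it was above 0 but was listed at 0 in IMAT 4, IMAT 5, SAT 2 and SAT 5. miR-365 was the only call among 7 entries of the brown and beige fat list, beside 8.23% of all entries, and the list median was 0.11. miR-146d, a form of the NF-kB-induced miR-146, was at 475, 442, 1148, 703 and 711 CPM in IMAT and at 1033, 2205, 2051, 2126 and 1708 CPM in SAT. IMAT 3 lay above SAT 1, and the log2 fold change was -1.39 ± 0.32 (adjusted p = 0.021). The call was lost with library totals only (-0.98, adjusted p = 0.06) and in the fit of all 14 libraries (0.18). miR-146a, among the most abundant miRNAs of both depots, averaged 72933 ± 27065 CPM in IMAT and 108930 ± 24553 CPM in SAT (SD, n = 5 each), a difference that did not pass (-0.58 ± 0.27, adjusted p = 0.22).

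Among the miRNAs predicted without a name, 3 were higher and 2 lower in IMAT. NovelmiRNA-324 was at 987, 1274, 543, 713 and 1448 CPM in IMAT and at 116, 46.0, 92.1, 51.7 and 86.0 CPM in SAT, with 3.66 ± 0.39 as its log2 fold change (edgeR adjusted p = 0.00034). It did not pass in the fit of all 14 libraries (adjusted p = 0.095). NovelmiRNA-426 was listed at 0 in all 5 IMAT libraries and at 27.5, 30.6, 23.7, 20.6 and 28.2 CPM in SAT (edgeR adjusted p = 0.00092, and 0.061 in the fit of all 14 libraries). Against the limit that 3 reads over the IMAT group allow (0.571 CPM) it was at least 45.7-fold lower in IMAT, a limit set mostly by the depth of IMAT 5, and without IMAT 5 the limit was 1.63 CPM and the fold at least 16.3. NovelmiRNA-206, whose number comes from the authors' own series and is not that of miR-206, was likewise listed at 0 in IMAT and averaged 13.3 ± 5.98 CPM in SAT (n = 5), at least 23.3-fold lower (adjusted p = 0.0055), and at least 8.27-fold lower without IMAT 5. These limits take a listed 0 as no reads, while 59 tested entries had a 0 beyond counting error in some library. NovelmiRNA-260 was higher, with 15.7 to 61.2 CPM in IMAT and 4.70 to 13.2 CPM in SAT (2.43 ± 0.50, adjusted p = 0.014), and did not pass without SAT 2, SAT 3, SAT 4 or SAT 5 (adjusted p = 0.053 to 0.069) or without a filter (0.092).

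**Figure D4:**
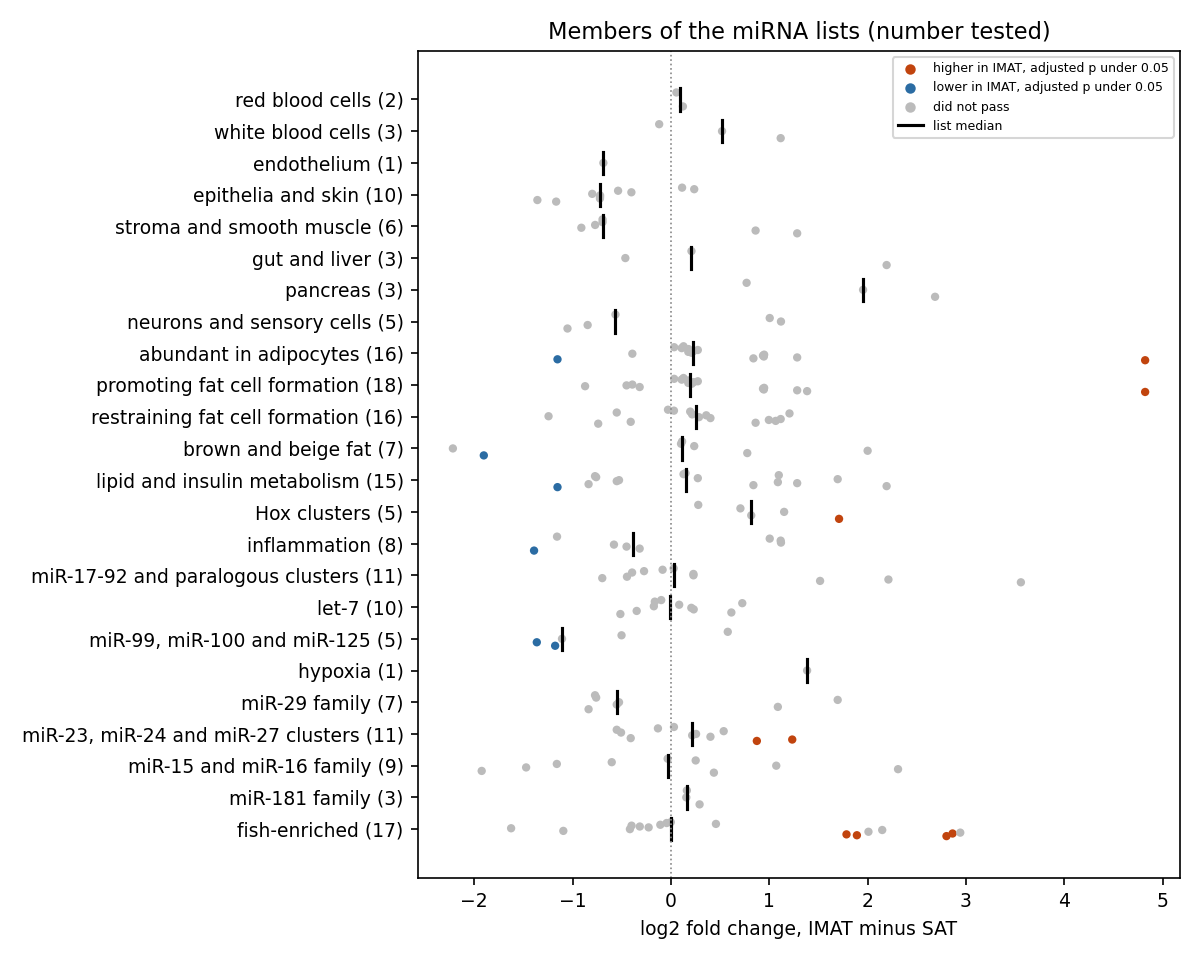
Log2 fold change (IMAT minus SAT) of the tested members of each miRNA list, with the number tested in brackets and the list median as a black line. Coloured points passed and grey points did not. The miR-99, miR-100 and miR-125 list has its median at -1.11 and the Hox-cluster list at 0.82, beside 0.08 for all 243 entries. The pancreas list, with 3 entries, has its median at 1.95, the value of miR-216b, which was at 0 to 22.2 CPM in IMAT. No marker list of another cell type holds a coloured point.

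None of the 33 tested entries on 8 lists of markers of other cell types passed with all 10 libraries, beside 8.23% of all entries. Without IMAT 5, 6 of 32 passed, beside 22.5% of all. The stromal list had 6 entries with a median log2 fold change of -0.69 and summed levels of 72893 to 98235 CPM in IMAT and 82439 to 152952 CPM in SAT. That median lay at the near-identical miR-214-5p and miR-214-3p, counted separately (-0.69 ± 0.51, edgeR adjusted p = 0.42 for each). Both were at 1916 CPM in SAT 1, beside 523 to 583 CPM in SAT 2 to 5 and 287 to 1092 CPM in IMAT. Within the stromal list, miR-199a-3p was at 38393, 35666, 35246, 38752 and 9537 CPM in IMAT, below the 45466 to 68476 CPM of every SAT library. It did not pass with IMAT 5 (-0.91 ± 0.33, edgeR adjusted p = 0.11) and passed without it (-0.68 ± 0.12, adjusted p = 0.0048). miR-143, of smooth muscle and adipocytes, was at 18052, 12396, 15754, 12180 and 53326 CPM in IMAT and at 6961 to 12649 CPM in SAT (1.28 ± 0.43, adjusted p = 0.093), and its log2 fold change without IMAT 5 was 0.67 ± 0.22 (adjusted p = 0.059). The endothelial miR-126 averaged 50885 ± 19188 CPM in IMAT and 81888 ± 16710 CPM in SAT (n = 5 each; -0.69 ± 0.29, adjusted p = 0.17).

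Of 10 epithelial and skin entries 8 had a negative log2 fold change (median -0.72), and their sum was 297 to 1089 CPM in IMAT and 533 to 1606 CPM in SAT. The near-identical entries miR-200a-3p, miR-200a-1-3p and miR-200a-2-3p, all negative, are counted separately in these values. miR-203a, made in the epidermis, averaged 117 ± 53.2 CPM in IMAT and 99.1 ± 33.4 CPM in SAT (n = 5 each; 0.24 ± 0.37, adjusted p = 0.76). Both arms of miR-205a lay wholly below SAT in IMAT. The 5p arm was at 7.65 to 50.2 CPM in IMAT and 64.0 to 94.1 CPM in SAT (-1.36 ± 0.44, edgeR adjusted p = 0.081). The 3p arm was at 15.3 to 64.7 CPM and 74.9 to 101 CPM (-1.17 ± 0.36, adjusted p = 0.077). Without IMAT 5 both passed (-1.73 ± 0.39, adjusted p = 0.015, and -1.40 ± 0.33, adjusted p = 0.017). White blood cell markers summed to 298 to 591 CPM in IMAT and 292 to 671 CPM in SAT (3 entries, median 0.52), and red blood cell markers to 0 to 71.2 CPM in IMAT and 10.6 to 33.6 CPM in SAT (2 entries, median 0.09). The 3 gut and liver entries had a median of 0.21 with sums of 125 to 456 CPM in IMAT and 98.4 to 182.2 CPM in SAT. The 5 neuronal and sensory entries had a median of -0.56. Their levels summed to 45.9 to 90.4 CPM in IMAT and 73.9 to 143.8 CPM in SAT. That median is the value of the scarce miR-137-5p, listed at 0 in every IMAT library but IMAT 4 (4.95 CPM). Its mean was 0.990 CPM in IMAT and 0.529 CPM in SAT, so the sign of the median is not read as a direction. Without IMAT 5 the list median was 0.18. The sums count miR-9a-3p and miR-9b-3p separately, whose levels were equal except in IMAT 2.

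On the lists of fat cell biology and of other miRNA families that follow, the calls were ones already described. They stand beside 5.35% higher and 2.88% lower of all entries, and lists this short are given as counts only. Entries were matched to lists by miRNA number, with all letters, copies and arms, and the role of each form was not tested. Among 18 entries on the list for favouring fat cell formation only miR-26d passed, and the median was 0.20. The near-identical miR-30c-5p, miR-30d-5p and miR-30d-3p count separately there. None of 16 entries on the list for restraining fat cell formation passed (median 0.25). The lipid and insulin list had 1 lower entry of 15, miR-22a, and a median of 0.15. The inflammation list had 1 lower entry of 8, miR-146d, and a median of -0.38. No entry passed among 11 of the miR-17-92 family and its paralogues (median 0.03), 10 of let-7 (-0.01), 9 of miR-15 and miR-16 (-0.03), 7 of miR-29 (-0.55) or 3 of miR-181 (0.16). miR-21b, a miRNA abundant in many cell types, averaged 83584 ± 13299 CPM in IMAT and 114247 ± 32032 CPM in SAT (n = 5 each; -0.45 ± 0.21, adjusted p = 0.2). let-7a averaged 50434 ± 13384 CPM in IMAT and 64180 ± 10241 CPM in SAT (-0.35 ± 0.21, adjusted p = 0.34). The hypoxia-induced miR-210-5p was at 364, 560, 318, 322 and 78.6 CPM in IMAT and at 149, 105, 128, 103.4 and 142.5 CPM in SAT. It was higher without IMAT 5 (1.64 ± 0.23, adjusted p = 0.0018) but did not pass with it (1.39 ± 0.43, adjusted p = 0.077).

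**Figure D5:**
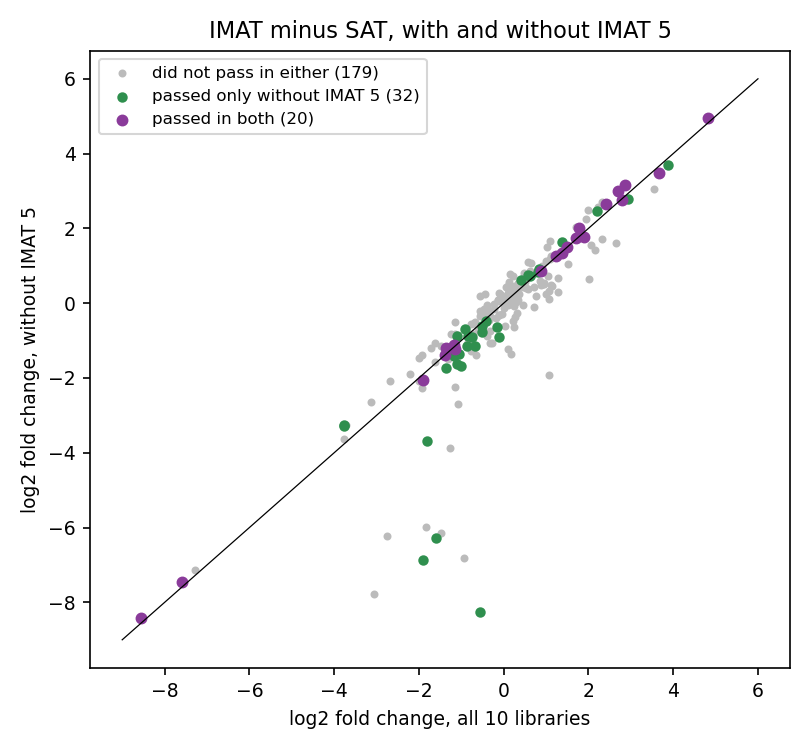
Log2 fold change (IMAT minus SAT) of each entry tested in both fits, with all 10 libraries on the horizontal axis and without IMAT 5 on the vertical axis, and the line of equal values. The 20 entries that passed in both lie close to the line, and the 32 that passed only without IMAT 5 include let-7e, at -0.10 with it and -0.91 without it.

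Without IMAT 5, a library singled out after its values were seen, 39 named miRNAs passed, 18 higher and 21 lower in IMAT. Those that passed there and not with all 10 libraries included let-7e (-0.91 ± 0.15, edgeR adjusted p = 0.0032), miR-27c (-0.47 ± 0.13, adjusted p = 0.033), miR-29b-2-3p (-0.87 ± 0.27, adjusted p = 0.049) and miR-27d (0.61 ± 0.18, adjusted p = 0.039). The near-identical entries miR-29b-1-3p and miR-29b-4-3p did not pass in that fit (-0.35 ± 0.27 and -0.33 ± 0.27, adjusted p = 0.39 and 0.43). miR-9b-3p, of neurons, also passed there (-1.35 ± 0.42, adjusted p = 0.049), but its relative miR-9a-3p did not (-1.04 ± 0.37, adjusted p = 0.074). With all libraries scaled together these entries had equal levels except in IMAT 2, with 11.5 CPM for miR-9b-3p and 30.6 CPM for miR-9a-3p. The epithelial list then had 2 lower entries of 9 and the let-7 list 1 higher and 3 lower of 10, beside 9.96% higher and 12.6% lower of all entries in that fit, and lists this short are given as counts only.

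Visceral libraries (VAT, 4 libraries, scaled together with the others) place the differences beside another depot. Of the 13 entries higher in IMAT than in SAT, 6 had a VAT mean below both, 6 above both and 1 between, and of the 7 lower ones 1 lay below both, 2 above both and 4 between, where NovelmiRNA-206, listed at 0 in IMAT and VAT alike, is counted as between. In this scaling miR-26d averaged 4828 ± 2165 CPM in IMAT, 195 ± 60.7 CPM in SAT and 75.7 ± 56.7 CPM in VAT (SD, n = 5, 5 and 4). miR-196b averaged 213 ± 99.8, 72.5 ± 13.6 and 5.08 ± 1.46 CPM in the same order. miR-8159 was highest in VAT, with 729 ± 682 CPM in IMAT, 125 ± 36.0 CPM in SAT and 3620 ± 1919 CPM in VAT. miR-99 was lowest in VAT, with 9462 ± 1940 CPM in IMAT, 24323 ± 3376 CPM in SAT and 2367 ± 480 CPM in VAT. These comparisons share the IMAT and SAT libraries, and no test was made on the VAT levels here.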

How the data were processed

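The authors deposited unscaled read counts as whole numbers, 1 column a library, and beside each a column headed TPM. Each deposited value in these columns equals the count scaled to the summed counts without the table's first row (CPM) within 0.005, so it has no length term, and it was not used in any test. Per the submitters' processing notes, the tools included Trimmomatic 0.30 and edgeR 3.4.6, with no step named. Aligner and genome version are not stated in the sources used here. Another 2 columns with values of a library that no label names were not used.

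From the deposited counts, muscle entries were removed, identical entries joined and entries above 0 in at least 4 of the 10 libraries tested in edgeR 4.0.16 under R 4.3.3 (quasi-likelihood), using TMM scaling and no block. The test was tried on simulated data. The standard error is the absolute log2 fold change divided by the square root of the F statistic. Alternatives used limma 3.58.1 and DESeq2 1.42.0. Named are the 15 strongest called miRNAs per direction at or above the median level, called list members, the 10 most abundant, up to 3 uncalled members a list and at most 2 predicted entries per direction. The miRNAs and lists were chosen with earlier results of these data known. Each p-value was adjusted over all entries tested. In 59 tested entries a library was listed at 0 where the lowest share above 0 in its depot predicts at least 20 reads, and 18 tested entries formed 8 near-identical sets. Members of these sets count separately in the lists and their sums. The limits given for a count of 0 cover counting error only.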

Additional observations from a re-analysis of the deposited data

Results flagged for a closer look

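Single libraries lay far from the other 4 of their depot in 23 of 162 groups of 5 looked at. Chance gives about 1 in 20 only for independent, normally distributed values. These values were not log-transformed, and the groups share libraries and related entries, so no excess over chance is read from the 23. Of the 23, 15 were IMAT 5. Its depth was among them, with 3944987 counts after removal and joining beside 578505 in the next IMAT library. High in IMAT 5 were miR-100a (199389 CPM, the nearest IMAT library 113529), miR-10b (146419, nearest 49099), miR-10d (60891, nearest 17695), miR-10a (29807, nearest 7852), let-7e (102953, nearest 25583) and miR-143 (53326, nearest 18052). Also high there were miR-375 (223.1, nearest 69.3), miR-25-3p and its near-identical entry miR-25-3-3p (5540 and 5539, nearest 1641), miR-181a (3765, nearest 2563), miR-181c (1533, nearest 841) and miR-462a (4713, nearest 3401). Low in IMAT 5 were miR-199a-3p (9537, nearest 35246) and miR-27d (1178, nearest 3343).

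IMAT 2 was high in miR-26d (10770 CPM, nearest 5468). IMAT 3 was high in miR-458 (5749, nearest 3948) and miR-144-3p (35.6, nearest 9.56). IMAT 4 was low in miR-21a (21329, nearest 24700) and listed at 0 for miR-16a (nearest 2324). In SAT, SAT 1 was high in miR-122 (52.3, nearest 19.5) and miR-16a (3822, nearest 3148) and low in miR-21a (22606, nearest 31821).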

How the results depend on the processing

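The calls per setting below are given as total, higher and lower in IMAT, beside 20, 13 and 7. DESeq2 gave 54, 29 and 25, library totals 36, 31 and 5, muscle entries kept 35, 25 and 10, near-identical entries joined 32, 14 and 18, and leaving out entries whose zeros exceed counting error 34, 19 and 15. All 14 libraries in 1 fit gave 13, 6 and 7, and no filter 13, 6 and 7. limma gave 26, 13 and 13. Without IMAT 4 and IMAT 5 together, an alternative chosen after seeing the data, 48, 25 and 23 passed. Leaving out 1 library at a time gave 11 to 52 calls, 4 to 23 higher and 7 to 29 lower, and a depot share of the profile variance of 24.3 to 30.5%. The cause of these shifts was not tested.

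With the replicate number as a block 6, 3 and 3 entries passed. Of the 19 calls described above (the 15 named miRNAs and the predicted entries given by ID) 6 remained. Lost were miR-456 (edgeR adjusted p = 0.052), miR-365 and miR-146d (0.057 each), miR-196b (0.07), miR-2188-3p (0.073), miR-23a (0.09) and miR-23b (0.093). Also lost were miR-2188-5p (0.12), miR-218 (0.13), NovelmiRNA-260 (0.14), NovelmiRNA-426 (0.21), and miR-8159 and NovelmiRNA-206 (0.24 each). The labels do not say that a number marks a shared fish, and the correlation of same-numbered deviations was -0.17 to 0.32 over 5 pairs, not above 0.1 in every pair, so the numbers were not taken to pair the libraries, and whether they mark shared fish is not known. Of the 5 IMAT libraries 1, IMAT 5, correlated best with its own number. All 19 of these called entries kept their direction in all 24 alternatives. Depth limits IMAT 4 most, with 151830 counts. RLE scaling, the stricter filter, identical entries left separate and miR-1338-5p kept (the last chosen after seeing the data) gave 24, 25, 21 and 23 calls.

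Among 79 miRNAs followed, the log2 fold change of 27 took the opposite sign in at least 1 alternative (127 values), and none of these values passed in that alternative or with all libraries. With RLE scaling these were miR-144-5p -0.029, miR-144-3p -0.099 and miR-455-3p -0.0028. With library totals these were let-7a-5p 0.014, miR-150-5p 0.18, miR-30a-5p 0.0010, miR-21a-5p 0.077, let-7e-5p 0.13, miR-15c-5p 0.37, miR-458-3p 0.18 and miR-462a-5p 0.33. In DESeq2 these were miR-144-5p -0.028, miR-144-3p -0.095 and miR-455-3p -0.024. In limma these were miR-144-5p -1.44, miR-144-3p -1.05, miR-25-3p -0.066, miR-25-3-3p -0.066, miR-23a-4-3p -1.56 and miR-462a-5p 0.018. With the stricter filter these were miR-15c-5p 0.0016 and miR-462a-5p 0.028. In the fit of all 14 libraries these were miR-144-5p -0.17, miR-144-3p -0.27, miR-192a-5p -0.028, miR-27b-3p -0.014, miR-455-3p -0.10, miR-181a-5p -0.0011 and miR-181b-5p -0.024. With the replicate block these were miR-10b-5p -0.010, miR-144-5p -1.82, miR-144-3p -1.14, miR-25-3p -0.089, miR-25-3-3p -0.089 and miR-462a-5p 0.018. With identical entries separate this was miR-144-3p -0.073. With near-identical entries joined these were miR-10b-5p -0.0087, miR-26a-5p -0.044, miR-144-5p -0.17, miR-144-3p -0.23, miR-192a-5p -0.054, miR-27b-3p -0.052, miR-455-3p -0.17, miR-203a-3p -0.047, miR-103-3p -0.0024, miR-25-3p -0.053, miR-25-3-3p -0.053, let-7i-5p -0.050, miR-181a-5p -0.12 and miR-181b-5p -0.11. Without the entries whose zeros exceed counting error this was miR-455-3p -0.040. Without IMAT 4 and IMAT 5 together these were miR-10b-5p -0.36, miR-155-5p -0.0059, miR-203a-3p -0.26, miR-10a-5p -0.27, miR-25-3p -0.45, miR-25-3-3p -0.45, miR-15c-5p 0.18, miR-181a-5p -0.051, miR-181c-5p -0.015 and miR-181b-5p -0.036. Leaving out 1 library at a time, the ranges that crossed 0 were miR-144-5p -1.09 to 0.50, miR-144-3p -1.33 to 0.44, miR-455-3p -0.27 to 0.23, miR-150-5p -0.50 to 0.11, let-7e-5p -0.91 to 0.068, miR-15c-5p -0.38 to 0.10, miR-462a-5p -0.38 to 0.10, miR-25-3p -0.49 to 0.37, miR-25-3-3p -0.49 to 0.37, miR-192a-5p -0.14 to 0.27, miR-27b-3p -0.062 to 0.38, miR-181a-5p -0.16 to 0.21, miR-181b-5p -0.19 to 0.26, miR-10b-5p -0.36 to 0.43, miR-26a-5p -0.038 to 0.40, miR-203a-3p -0.16 to 0.39, miR-103-3p -0.099 to 0.47, let-7i-5p -0.087 to 0.26, miR-92a-3p -1.07 to 0.026, miR-10a-5p -0.11 to 0.87 and miR-181c-5p -0.062 to 0.36.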

Other observations

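The miRNAs in which IMAT 5 lay far from IMAT 1 to 4 were looked up in the other depots, with all 14 libraries scaled together. Of these 14 entries, 12 were highest and 2 lowest in IMAT 5. In 11 of the 14 the VAT library farthest in the same direction was VAT 4, of the 4 VAT libraries. The 14 were picked by their values in IMAT 5, and they include the near-identical miR-25-3p and miR-25-3-3p and the related miR-10 entries. The same count over all entries is not given, so the 11 of 14 has no share to be set against. miR-10b was at 149035 CPM in IMAT 5 and 24275 to 39622 CPM in IMAT 1 to 4, and at 41325 CPM in VAT 4 beside 3912 to 6904 CPM in the other VAT libraries. miR-25-3p was at 5639 CPM in IMAT 5 beside 815 to 1470 CPM in IMAT 1 to 4, and at 9968 CPM in VAT 4 beside 1325 to 1608 CPM in the other VAT libraries. miR-27d was lowest in both, at 1199 CPM in IMAT 5 and 692 CPM in VAT 4, beside at least 2609 CPM in IMAT 1 to 4 and 2039 CPM in the other VAT libraries. Over all 283 entries, which are not independent, the deviation of IMAT 5 from its depot had r = 0.16 with that of VAT 4, -0.21 to -0.01 with those of the other VAT libraries and -0.20 to 0.19 with those of the SAT libraries. The highest r was that with SAT 5 (0.19), so over all entries VAT 4 was not the closest library. Among SAT libraries SAT 5 was farthest in that direction in 7 of the 14. The labels give IMAT 5 and VAT 4 different depots and replicate numbers, and no source of these values was tested.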
